A study of Mus musculus with 10 samples.

Results

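The cornified envelope and epidermal differentiation genes described here are 51 genes of 24016 carried by both deposited expression tables. A gene was taken when its symbol began with SPRR (small proline-rich protein) or with LCE (late cornified envelope) followed by a digit, or when it was a named envelope precursor, cross-linking enzyme or secreted differentiation product. The choice rests on symbols and on no measured value. By family there were 14 SPRR genes, 21 LCE genes, the 2 core precursors IVL and LOR, 5 fused S100-type genes (CRNN, FLG2, HRNR, RPTN and TCHH), the 3 transglutaminases TGM1, TGM3 and TGM5, the 2 plakins PPL and EVPL, and 4 secreted or other products (DMKN, SBSN, KRTDAP and CNFN). FLG and CSTA, which the naming rule also covers, are not analysed here.

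The 10 RNA-seq libraries came from cancer organoids grown from dorsal-lateral prostate of C57BL/6 mice aged 8 weeks. All 10 shared MYC overexpression, floxed Ezh2 alleles, a CreERT2 recombinase under the PSA promoter and medium with 10 nM R1881, a synthetic androgen. In the chemical experiment 3 libraries were given 1 µM DZNep, used by the series as an EZH2 inhibitor, and 3 were given DMSO. In the genetic experiment 2 libraries were given 1 µM Tamoxifen, which activates CreERT2, and 2 were given ethanol (EtOH). RNA was taken at 3 days. No Tamoxifen library without CreERT2 is used here, so effects of Tamoxifen itself and of recombination cannot be told apart, and PSA-driven Cre acts only in cells that use that promoter. Whether replicates are separate cultures or animals is not in the labels. P-values therefore describe the spread among these libraries, and that spread may be technical.

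When a keratinocyte dies at the surface of the skin, transglutaminases cross-link precursor proteins under its plasma membrane into a cornified envelope, which then carries the lipids of the barrier. Involucrin (IVL) and the plakins envoplakin (EVPL) and periplakin (PPL) form an early scaffold, and loricrin (LOR), the SPRR proteins and the LCE proteins reinforce it. Most of these precursors lie side by side in the epidermal differentiation complex, and in glandular epithelia such as the prostate they are usually low, with squamous change as the known exception. In the reference annotation 42 of the 51 genes lie on mouse chromosome 3, 4 on chromosome 7, 2 on chromosome 2, and 1 each on chromosomes 11, 14 and 16.

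The stretch just upstream of several of these genes holds a match to TGANTCA, the site of the AP-1 dimers of FOS and JUN proteins that is well studied in keratinocyte genes. The letters were searched on both strands in the 250 bases before each transcription start in RefSeq sequences of build GRCm38.p6. The motif reads the same on both strands, and none of its matches in these genes overlapped a match of the other motifs searched. A promoter entry was found for 46 of the 51 genes, and SPRR2G, SPRR2J-PS, EVPL, PPL and LCE1F had none. The motif stood in 17 of those 46 genes, against 6.75% of all 32851 promoters of the same length. It stood in 7 of 8 SPRR2 genes, in 3 of the 4 chromosome 7 genes and in 0 of 20 LCE genes. The windows below show genes whose levels the later paragraphs turn on, with the match in capitals and 20 bases on either side, 5′ to 3′ on the gene's strand. KRTDAP (chr7:30787804-30787850), DMKN (chr7:30763647-30763693) and SBSN (chr7:30751332-30751378) lie next to each other on the plus strand. RPTN (chr3:93393583-93393629) and CRNN (chr3:93144673-93144719) are fused S100-type genes on the plus strand. SPRR2D (chr3:92338927-92338973), SPRR2E (chr3:92351930-92351976), SPRR2F (chr3:92364970-92365016) and SPRR2H (chr3:92385467-92385513) lie in tandem on the plus strand. SPRR1A (chr3:92485971-92486017) and IVL (chr3:92573825-92573871) are read from the minus strand. SPRR1A and DMKN each hold a further match that is not shown.
KRTDAP: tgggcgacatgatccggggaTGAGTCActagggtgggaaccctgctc
DMKN: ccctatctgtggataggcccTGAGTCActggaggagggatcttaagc
SBSN: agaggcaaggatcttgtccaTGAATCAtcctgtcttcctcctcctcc
RPTN: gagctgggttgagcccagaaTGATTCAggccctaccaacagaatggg
CRNN: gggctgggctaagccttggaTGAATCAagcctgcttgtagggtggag
SPRR2D: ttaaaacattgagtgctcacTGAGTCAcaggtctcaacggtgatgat
SPRR2E: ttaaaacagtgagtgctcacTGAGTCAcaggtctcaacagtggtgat
SPRR2F: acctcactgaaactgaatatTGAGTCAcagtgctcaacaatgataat
SPRR2H: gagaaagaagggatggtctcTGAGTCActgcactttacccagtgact
SPRR1A: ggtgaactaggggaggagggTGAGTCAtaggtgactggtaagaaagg
IVL: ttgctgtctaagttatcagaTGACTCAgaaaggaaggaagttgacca

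In SPRR2D, SPRR2E, SPRR2F and SPRR2H the match begins 193 to 198 bases before the start, and the promoters of SPRR2D and SPRR2E were 89.3% identical over their aligned length. KRTDAP, higher with DZNep and lower with Tamoxifen in the results below, has its match 81 bases before the start, and its 250 upstream bases (chr7:30787655-30787904, plus strand) are shown with the same match in capitals.
KRTDAP upstream: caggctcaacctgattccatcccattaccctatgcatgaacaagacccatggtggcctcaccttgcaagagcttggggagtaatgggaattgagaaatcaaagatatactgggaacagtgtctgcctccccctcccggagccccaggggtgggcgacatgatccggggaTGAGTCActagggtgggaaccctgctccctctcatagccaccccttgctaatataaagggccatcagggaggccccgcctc
Of the other motifs searched, GGAAGT (ETS) stood in 12 of 46 genes against 19.7% of all promoters, CCACCC (KLF and SP) in 13 against 28.1%, and the interferon-stimulated response element in 1 against 2.98%. These are matches of letters and say nothing of binding.

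The deposited values were log2 RPKM with a floor of 0, RPKM being reads scaled to transcript length and library size. They are read here as log2(RPKM + 1), which no label or header states, and every RPKM below rests on that reading. A gene was tested where its mean level in a table reached 1 RPKM. Of the 51, 20 passed in the chemical table and 17 of these also passed in the genetic one. SPRR1B and SPRR2D passed in the chemical table only through the level of the DZNep libraries, and RPTN passed in the genetic table only through EtOH, so for these 3 genes a difference follows in part from the filter. Each library listed 15021 to 15404 genes above 0, with summed RPKM of 469455 to 512726, and read depth is unknown. EZH2 had 22.5 to 24.7 RPKM with DZNep against 27.1 to 30.4 with DMSO (limma adjusted p = 0.0142), and 32.0 and 33.2 with Tamoxifen against 27.9 and 34.0 with EtOH, where a whole-gene value need not register the loss of a floxed part. The prostate markers HOXB13 and FOXA1 were at 29.2 to 36.1 and 98.5 to 110.7 RPKM over the 10 libraries, and PBSN, the probasin gene of secretory luminal cells, was listed at 0 in all 10.

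With DZNep, 9 of the 20 genes tested were higher than with DMSO, 3 were lower and 8 were not called (limma, Benjamini-Hochberg adjusted p under 0.05 over all genes). Over all 11143 genes tested, 27.7% were called, 16.6% higher and 11.1% lower. The higher genes were secreted products of suprabasal cells (KRTDAP, SBSN and DMKN), SPRR2 genes (SPRR2A2, SPRR2D and SPRR2H), LCE6A, repetin (RPTN) and the cross-linking enzyme TGM1. SPRR2D passed the filter only through DZNep, so its place in this count follows in part from the filter. The lower genes were cornulin (CRNN), LOR and PPL. Of these, 1 was called without DZNep 2, DZNep 3 or DMSO 2, where 701, 964 and 541 of all genes were called lower, against 1238. The median change of the 20 was 0.21 on the log2(RPKM + 1) scale, against 0.01 over all genes tested. It was -0.014 over the 13 members past a filter of 5 RPKM, 0.020 over the 17 of the joint fit and 0.049 over 47 with no filter, and no direction is drawn from it. In these bulk libraries fewer cells of a type and less RNA per cell cannot be told apart.

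With Tamoxifen, 7 of the 17 genes tested were lower than with EtOH and 0 were higher, against 2.07% of 11123 genes called, 0.692% higher and 1.38% lower. The lower genes were KRTDAP, SBSN, DMKN, RPTN, CRNN, TGM1 and TGM5. RPTN passed the filter only through EtOH, so its place in this count follows in part from the filter. The median change of the 17 was -0.45, against 0.04 over all genes tested. The calls leaned on both Tamoxifen libraries and on the filter, as calls over all genes did. Without Tamoxifen 1 or Tamoxifen 2 fewer members and fewer of all genes were called lower. Without EtOH 1 or EtOH 2 more of both were. Each of these fits leaves a lone library in a group. The member median was -0.58, -0.45, -0.49 and -0.46 without Tamoxifen 1, Tamoxifen 2, EtOH 1 and EtOH 2. Over all genes tested it was 0.04, 0.03, 0.02 and 0.05. With no filter on low values 0 members were called, and of all 16382 genes 1 was, or 0.0061%. Of the 39 members in that fit, 15 were below 0 at an unadjusted limma p under 0.05 and 0 above. The share of all genes at that unadjusted threshold was not computed, so no direction is drawn from this count.

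**Figure D1:**
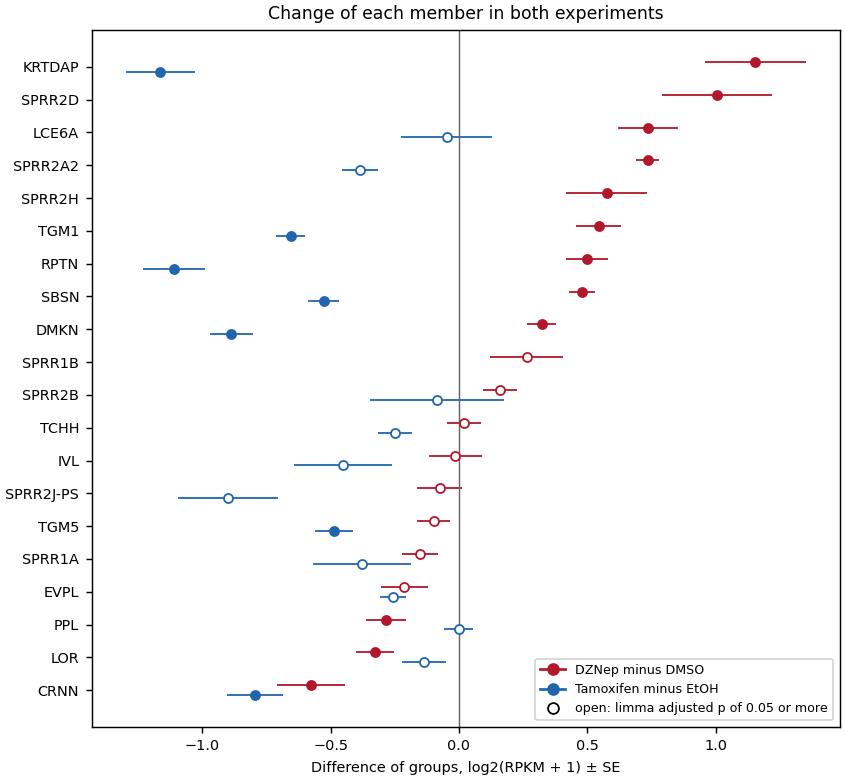
Change of each gene with a mean of at least 1 RPKM, as the difference of group means in log2(RPKM + 1) with its standard error, for DZNep minus DMSO (red) and Tamoxifen minus EtOH (blue). Filled points passed a limma adjusted p of 0.05. Red points run between -0.58 (CRNN) and 1.15 (KRTDAP), and every blue point lies at or left of 0.

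KRTDAP, SBSN and DMKN are 3 neighbouring genes on chromosome 7 that encode proteins secreted by the upper layers of stratified epithelia, and all 3 were higher with DZNep and lower with Tamoxifen. KRTDAP, the keratinocyte differentiation-associated protein, had 26.6, 22.2 and 20.3 RPKM in the DZNep libraries, against 13.6, 7.15 and 9.37 RPKM in the DMSO libraries. It had 3.66 and 2.73 RPKM with Tamoxifen, against 7.61 and 9.12 RPKM with EtOH. In neither experiment did the groups overlap. The change was 1.15 ± 0.20 (log2, SE; limma adjusted p = 0.0052) with DZNep and -1.16 ± 0.13 (adjusted p = 0.0330) with Tamoxifen.

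Dermokine (DMKN) had 68.9, 68.7 and 62.9 RPKM with DZNep, against 55.6, 51.7 and 52.4 RPKM with DMSO. With Tamoxifen it had 28.6 and 24.8 RPKM, against 48.6 and 51.5 RPKM with EtOH. Both sets of groups were apart, and the change was 0.32 ± 0.06 (limma adjusted p = 0.00578) with DZNep and -0.89 ± 0.08 (adjusted p = 0.0262) with Tamoxifen. Suprabasin (SBSN), named for its place above the basal layer, had 50.03, 53.0 and 49.9 RPKM with DZNep, against 38.0, 35.2 and 35.7 RPKM with DMSO. Its levels with Tamoxifen were 23.9 and 22.3 RPKM, against 33.1 and 34.3 RPKM with EtOH. SBSN thus differed by 0.48 ± 0.05 (adjusted p = 0.000721) and by -0.53 ± 0.06 (adjusted p = 0.0330). Of its 50-base stretches 6.96% also occur in TMEM147OS, and the handling of strand in counting is unknown. Summed over the 3 genes, the level was 141 ± 6.78 RPKM with DZNep and 99.6 ± 6.85 RPKM with DMSO (SD, n = 3 each), and 53.0 ± 4.52 RPKM with Tamoxifen and 92.1 ± 4.02 RPKM with EtOH (SD, n = 2 each). The exact two-sided permutation p was 0.1 for the chemical and 0.33 for the genetic sums, the smallest values that 3 against 3 and 2 against 2 libraries allow.

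Transglutaminase 1 (TGM1), the membrane-bound enzyme that starts envelope cross-linking, had 14.9, 15.01 and 11.9 RPKM with DZNep, against 9.81, 9.11 and 8.69 RPKM with DMSO. Its levels were 5.79 and 6.09 RPKM with Tamoxifen, against 9.84 and 10.02 RPKM with EtOH. TGM1 was thus above all of its controls in the chemical experiment, at 0.54 ± 0.09 (limma adjusted p = 0.00448), and below them in the genetic one, at -0.66 ± 0.06 (adjusted p = 0.0262). TGM5, an epidermal transglutaminase whose loss in humans causes acral peeling skin, did not follow it with DZNep, where 7.14, 7.88 and 6.68 RPKM overlapped 7.91, 8.01 and 7.50 RPKM with DMSO. It was lower with Tamoxifen, at 5.46 and 5.13 RPKM against 7.40 and 8.28 RPKM with EtOH (-0.49 ± 0.07, adjusted p = 0.0481). TGM3, the hair and late epidermal enzyme, did not exceed 0.0366 RPKM in any library.

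The fused S100-type genes encode long repeat proteins that bind calcium through an S100 domain. Repetin (RPTN) was low, with 3.53, 3.33 and 2.80 RPKM in the DZNep libraries, against 1.86, 1.93 and 2.15 RPKM in the DMSO libraries. It stood at 0.530 and 0.369 RPKM with Tamoxifen, against 1.89 and 2.37 RPKM with EtOH. Its change was 0.50 ± 0.08 (limma adjusted p = 0.00463) with DZNep and -1.11 ± 0.12 (adjusted p = 0.0305) with Tamoxifen, on a scale whose added 1 compresses low genes. RPTN passed in the genetic table only through EtOH, so the Tamoxifen difference follows in part from the filter. Cornulin (CRNN), a marker of squamous epithelium of the oesophagus in humans, had 48.7, 40.2 and 38.7 RPKM with DZNep, against 51.7, 71.1 and 70.1 RPKM with DMSO. It had 33.5 and 33.5 RPKM with Tamoxifen, against 65.6 and 52.6 RPKM with EtOH. CRNN was the 1 gene of the 17 that was lower in both experiments, at -0.58 ± 0.13 (adjusted p = 0.0169) with DZNep and -0.79 ± 0.11 (adjusted p = 0.0395) with Tamoxifen. Its call with DZNep was lost without DZNep 2 (-0.54), DZNep 3 (-0.51) or DMSO 2 (-0.50). Trichohyalin (TCHH), a hair follicle and tongue protein, had 4.26, 4.60 and 4.02 RPKM with DZNep, against 3.86, 4.42 and 4.39 RPKM with DMSO, and was not called in either experiment. Its levels of 2.81 and 2.86 RPKM with Tamoxifen lay below 3.47 and 3.63 RPKM with EtOH (-0.25 ± 0.07, adjusted p = 0.114). FLG2 and HRNR did not exceed 0.149 RPKM.

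**Figure D2:**
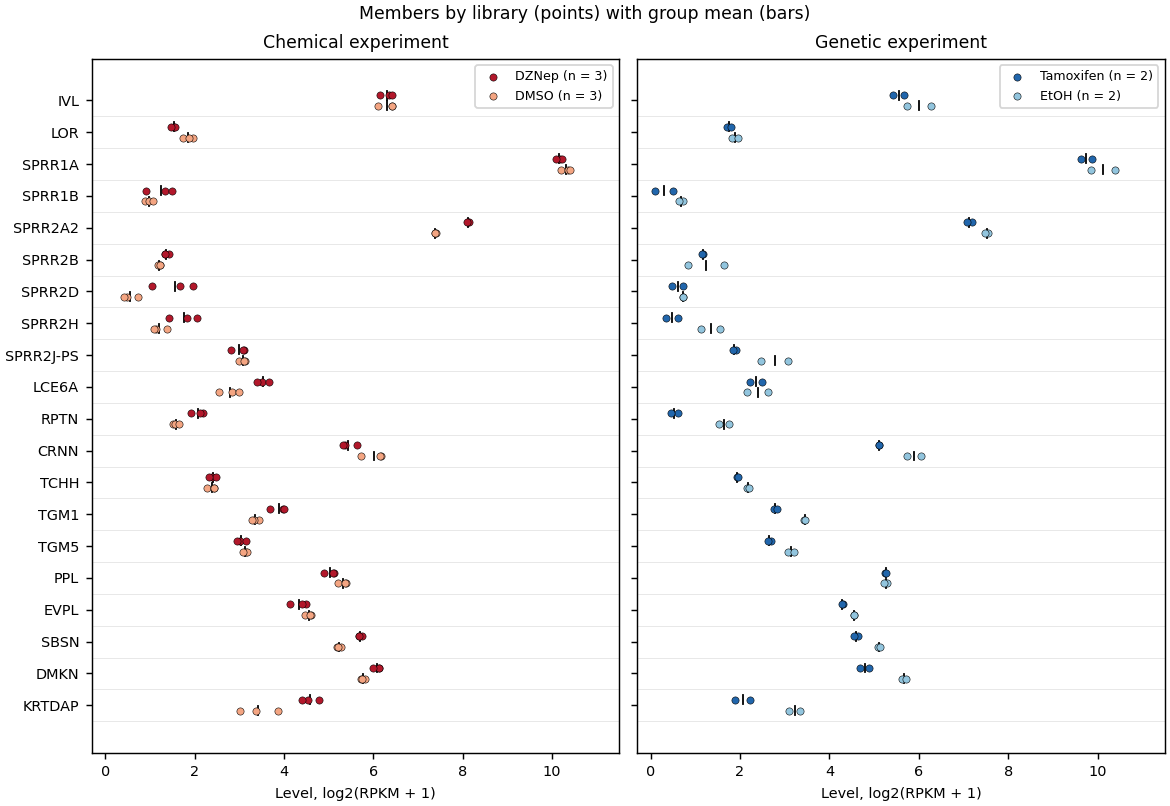
Level of the 20 genes tested in either table, in log2(RPKM + 1), for each library (points) with the group mean (bars), DZNep and DMSO on the left and Tamoxifen and EtOH on the right. SPRR1A stands highest and SPRR2A2 next; KRTDAP, SBSN, DMKN, TGM1 and RPTN lie right of their controls on the left panel and left of them on the right panel.

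The SPRR family held the most abundant member by RPKM. SPRR1A, an envelope cross-bridging protein also known as a stress-induced gene, made up 63.4% to 71.9% of the summed RPKM of the 51 genes. It had 1161, 1189.9 and 1081 RPKM with DZNep, against 1175, 1299 and 1342 RPKM with DMSO, and 939 and 788 RPKM with Tamoxifen, against 1343 and 930.4 RPKM with EtOH. Its groups overlapped in both experiments, and its changes of -0.15 ± 0.07 (limma adjusted p = 0.142) and -0.38 ± 0.19 (adjusted p = 0.274) did not pass.

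The SPRR2 genes are tandem copies whose proteins cross-link envelope precursors to each other. SPRR2A2 had 278, 282 and 272 RPKM with DZNep, against 166, 168 and 164 RPKM with DMSO, and 145 and 134 RPKM with Tamoxifen, against 188 and 177 RPKM with EtOH. The DZNep change was 0.73 ± 0.05 (limma adjusted p = 4.5e-05), the smallest adjusted p among the members in that comparison. With Tamoxifen both libraries lay below both EtOH libraries, but the change of -0.38 ± 0.07 did not pass (adjusted p = 0.0635). Of the 50-base stretches of its transcripts 96.5% also occur in other genes, chiefly SPRR2A1 and SPRR2A3, so reads of these copies cannot be told apart and the value may belong to any of them. SPRR2A2 supplied 93.6% to 96.5% of the RPKM summed over the 10 SPRR2 genes, which was 292 ± 7.69 with DZNep and 177 ± 2.07 with DMSO (SD, n = 3 each; exact permutation p = 0.1) and 145 ± 8.42 with Tamoxifen and 192 ± 9.20 with EtOH (SD, n = 2 each; exact permutation p = 0.33).

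The other SPRR2 genes were at or under 7.81 RPKM, and some of them share sequence in part. SPRR2D had 2.88, 2.17 and 1.05 RPKM with DZNep, against 0.398, 0.663 and 0.344 RPKM with DMSO, a change of 1.00 ± 0.21 (limma adjusted p = 0.0125). SPRR2D passed the filter only through DZNep, so this difference follows in part from the filter. In the genetic table it did not pass the filter, with 0.658 and 0.395 RPKM against 0.649 and 0.655 RPKM with EtOH. SPRR2H had 2.55, 3.17 and 1.69 RPKM with DZNep, against 1.20, 1.11 and 1.60 RPKM with DMSO, a change of 0.57 ± 0.16 (adjusted p = 0.0308). That call was lost without DZNep 1 (0.55), DZNep 2 (0.43), DMSO 1 (0.54) or DMSO 2 (0.52), and with no filter. Below the filter SPRR2H stood at 0.267 and 0.520 RPKM with Tamoxifen, against 1.95 and 1.19 RPKM with EtOH. SPRR2B did not pass with DZNep (0.16 ± 0.07, adjusted p = 0.105), although 1.53, 1.69 and 1.53 RPKM lay above 1.33, 1.26 and 1.34 RPKM with DMSO. With Tamoxifen it had 1.25 and 1.22 RPKM, between the EtOH libraries at 0.798 and 2.14 RPKM. SPRR2J-PS, annotated as a transcribed pseudogene, had 7.65, 7.51 and 6.00 RPKM with DZNep, overlapping 6.94, 7.81 and 7.61 RPKM with DMSO. With Tamoxifen it had 2.78 and 2.56 RPKM, against 7.42 and 4.56 RPKM with EtOH, a change of -0.90 ± 0.20 that did not pass (adjusted p = 0.0823).

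SPRR1B had 1.52, 1.81 and 0.885 RPKM with DZNep, overlapping 0.865, 0.968 and 1.10 RPKM with DMSO (0.26 ± 0.14, limma adjusted p = 0.200), and did not exceed 0.648 RPKM in the genetic table. Among SPRR genes below the filter, a fit with no filter called SPRR2E and SPRR2F higher with DZNep, at 0.73 ± 0.10 (adjusted p = 0.00863) and 0.52 ± 0.06 (adjusted p = 0.00477). SPRR2E had 0.503, 1.001 and 0.746 RPKM with DZNep, against 0.0613, 0.0297 and 0.0530 RPKM with DMSO. SPRR2F had 0.673, 0.489 and 0.426 RPKM with DZNep, against 0.0670, 0.0651 and 0.0580 RPKM with DMSO. In that fit 17.3% of 17137 genes were called, 10.3% higher and 7% lower, and 10 members were higher and 3 lower. SPRR2G, SPRR2I, SPRR2K, SPRR3 and SPRR4 stayed at or under 0.829 RPKM everywhere.

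The LCE genes, whose products join the envelope late in the outermost skin layers, were nearly silent apart from LCE6A. LCE6A had 10.4, 11.7 and 9.58 RPKM with DZNep, against 4.85, 6.19 and 6.95 RPKM with DMSO, a change of 0.74 ± 0.12 (limma adjusted p = 0.00393). With Tamoxifen it had 4.60 and 3.65 RPKM, against 5.22 and 3.48 RPKM with EtOH, and the groups overlapped (-0.05 ± 0.18, adjusted p = 0.881). The other 20 LCE genes did not pass in either table. LCE1B, the highest of them, had 0.643, 0.325 and 0.292 RPKM with DZNep, against 1.01, 1.22 and 1.43 RPKM with DMSO, and was lower in the fit with no filter (-0.65 ± 0.11, adjusted p = 0.0179). Its levels were 0.218 and 0.665 RPKM with Tamoxifen, against 1.40 and 1.58 RPKM with EtOH, a change of -0.80 ± 0.17 that did not pass (adjusted p = 0.159). LCE1A1 reached 0.570 RPKM, and the remaining LCE1 and LCE3 genes (LCE1A2, LCE1C to LCE1M and LCE3A to LCE3F) stayed at or under 0.215 RPKM, with LCE1D, LCE1G, LCE1K and LCE1M listed at 0 in all 10 libraries. LCE1 and LCE3 copies share up to 49.3% of their 50-base stretches with other genes.

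**Figure D3:**
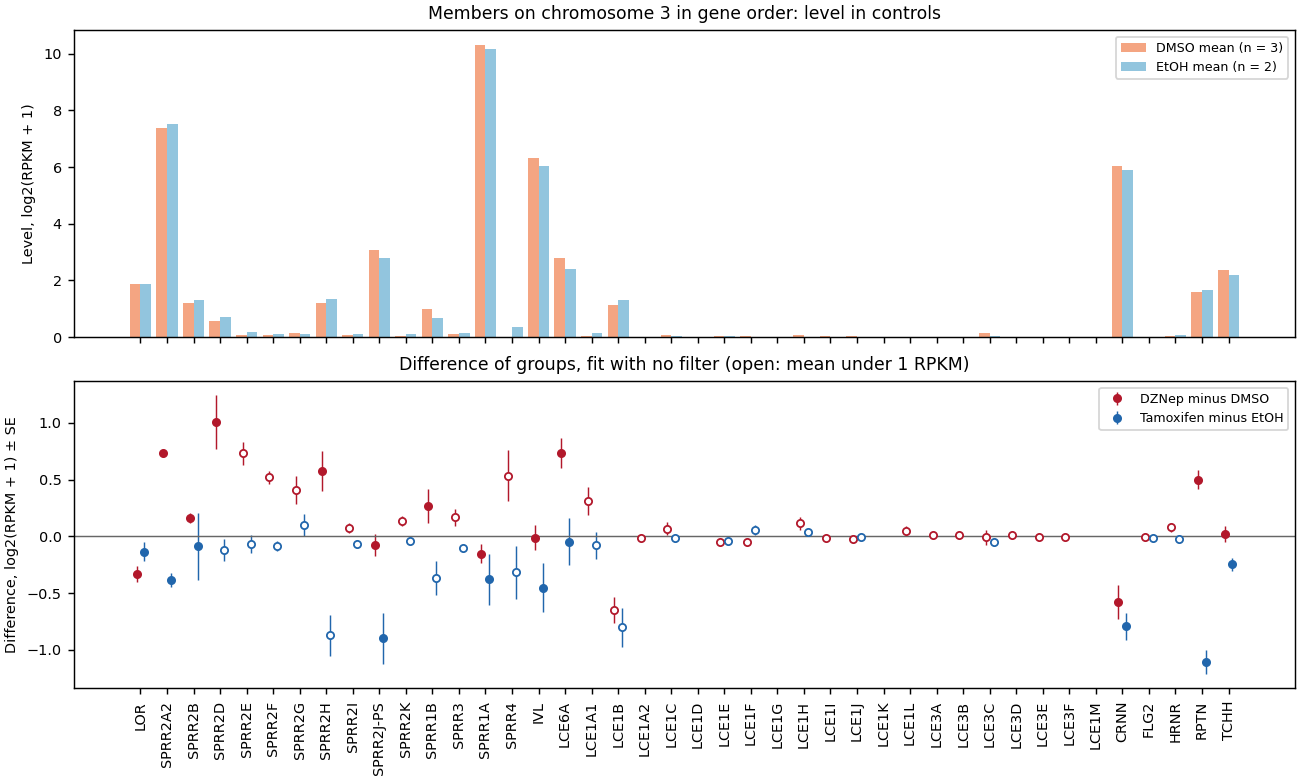
The 42 genes of chromosome 3 in their order along the reference annotation, with the DMSO and EtOH means in log2(RPKM + 1) above and, below, the difference of groups with its standard error from the fit with no filter. Open points mark genes averaging under 1 RPKM in that table, and genes listed at 0 in a whole table have no point. The points of SPRR2A2 to SPRR2H lie above 0 with DZNep, and at the far end RPTN lies above and CRNN below it.

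Among the 2 core precursors and the 2 plakins, LOR and PPL were lower with DZNep and IVL and EVPL were not called. With Tamoxifen 0 of the 4 were called. Involucrin (IVL) had 81.1, 83.8 and 69.4 RPKM with DZNep, overlapping 68.1, 84.2 and 84.8 RPKM with DMSO (-0.01 ± 0.10, limma adjusted p = 0.930). With Tamoxifen it had 50.1 and 42.0 RPKM, against 76.4 and 52.1 RPKM with EtOH, a change of -0.45 ± 0.19 that did not pass (adjusted p = 0.216). Loricrin (LOR), the bulk protein of the epidermal envelope, was only at 1.92, 1.95 and 1.78 RPKM with DZNep, against 2.88, 2.33 and 2.68 RPKM with DMSO. It was lower with DZNep (-0.33 ± 0.07, adjusted p = 0.0156) and not called with Tamoxifen, at 2.26 and 2.46 RPKM against 2.51 and 2.87 RPKM with EtOH (-0.14 ± 0.09, adjusted p = 0.355).

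Periplakin (PPL), which ties the envelope to desmosomes and keratin filaments, had 33.5, 33.2 and 28.6 RPKM with DZNep, against 35.8, 40.8 and 40.05 RPKM with DMSO. The decrease of PPL with DZNep was small (-0.28 ± 0.08, limma adjusted p = 0.0297), and the call was lost without DZNep 2 (-0.32), DZNep 3 (-0.21), DMSO 2 (-0.25) or DMSO 3 (-0.26), and with no filter. Its levels with Tamoxifen, 37.1 and 37.4 RPKM, lay between 38.4 and 36.1 RPKM with EtOH, and the estimate was -0.0004. Its partner envoplakin (EVPL) had 21.5, 20.1 and 16.4 RPKM with DZNep, overlapping 21.3, 23.2 and 23.0 RPKM with DMSO (-0.21 ± 0.09, adjusted p = 0.121). EVPL had 18.7 and 18.3 RPKM with Tamoxifen, against 22.3 and 22.4 RPKM with EtOH, which were apart but did not pass (-0.26 ± 0.05, adjusted p = 0.0712). CNFN, cornifelin, stayed at or under 1.27 RPKM in the chemical table and was listed at 0 in both Tamoxifen libraries, against 0.316 and 0.444 RPKM with EtOH.

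Summed over all 51 genes, the level was 1794 ± 90.1 RPKM with DZNep and 1788 ± 105 RPKM with DMSO (SD, n = 3 each; exact two-sided permutation p = 0.9). It was 1218 ± 126 RPKM with Tamoxifen and 1638 ± 325 RPKM with EtOH (SD, n = 2 each; exact permutation p = 0.33). Since SPRR1A led that sum, it was also taken without SPRR1A, giving 650.4 ± 34.6 RPKM with DZNep and 516 ± 19.3 RPKM with DMSO, with no overlap and a ratio of 1.26 (exact permutation p = 0.1, n = 3 each). Without SPRR1A the genetic groups were also apart, at 355 ± 19.5 RPKM with Tamoxifen and 501 ± 32.7 RPKM with EtOH, a ratio of 0.708 (exact permutation p = 0.33, n = 2 each). The LCE sum was 11.7 ± 1.35 RPKM with DZNep and 7.58 ± 1.41 RPKM with DMSO, and 4.70 ± 0.38 RPKM with Tamoxifen and 6.05 ± 1.41 RPKM with EtOH. Most of it was LCE6A, at means of 10.6, 5.99, 4.13 and 4.35 RPKM in that order. LCE1B, the next gene, was at 0.420, 1.22, 0.442 and 1.49 RPKM, so with DZNep it went against the sum. The LCE sum is therefore not a level of the family.

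**Figure D4:**
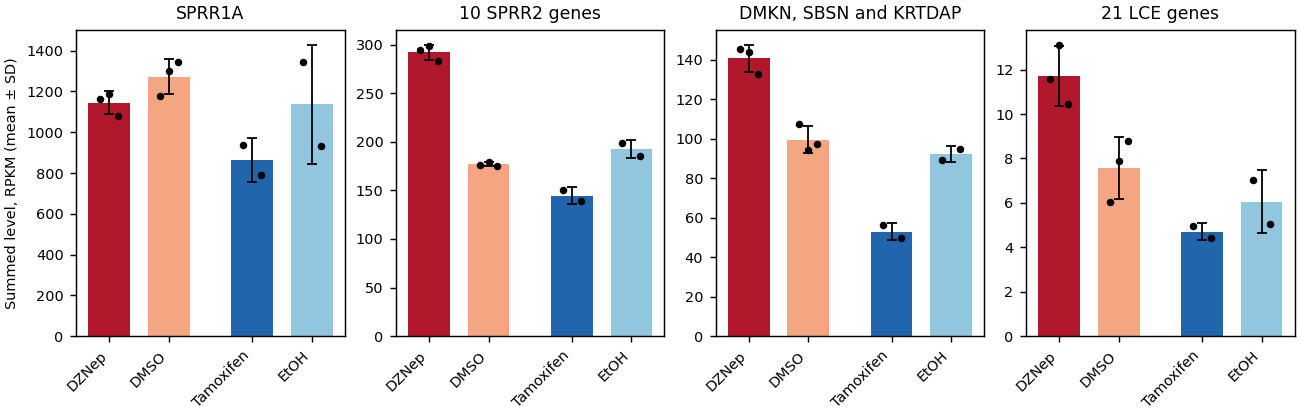
Summed RPKM of SPRR1A, the 10 SPRR2 genes, DMKN with SBSN and KRTDAP, and the 21 LCE genes, as group means with SD and a point per library (n = 3 for DZNep and DMSO, n = 2 for Tamoxifen and EtOH). The SPRR2 sum is 292 RPKM with DZNep and 177 RPKM with DMSO, and SPRR1A overlaps between groups in both experiments. Most of the LCE sum is LCE6A, and most of the SPRR2 sum is SPRR2A2.

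Over the genes tested, the libraries did not overlap for 10 of 20 higher and 3 of 20 lower with DZNep, against 26.1% and 19.4% of all genes, and for 13 of 17 lower and 0 higher with Tamoxifen, against 23.2% and 36.6% of all genes. SPRR2D with DZNep and RPTN with Tamoxifen are in these counts, and their differences follow in part from the filter. The direction of the 2 experiments was then compared gene by gene, each with its own controls. Among the 17 genes tested in both, 5 were higher with DZNep and lower with Tamoxifen (DMKN, KRTDAP, RPTN, SBSN and TGM1), a pattern held by 37 of 10994 genes, or 0.337%. RPTN passed in the genetic table only through EtOH, so its place in this pattern and its difference below follow in part from the filter. CRNN was lower in both, as were 0.146% of all genes. Of the members 0 were higher in both and 0 were lower with DZNep and higher with Tamoxifen, patterns held by 0.327% and 0.0819% of all genes. In 1 limma fit of all 10 libraries, the DZNep effect minus the Tamoxifen effect was above 0 and called for 9 of the 17 and below 0 and called for 0, with 1 gene (PPL) below 0 at an unadjusted p under 0.05. Over all 10994 genes 19.9% were called, 10.7% above 0 and 9.2% below. With no filter, 11 of 39 members were called above 0 and 0 were called below, against 7.47% and 5.83% of 15965 genes (13.3% in all). The added calls included SPRR2E, SPRR2F and CNFN. The widest differences were 2.32 ± 0.29 for KRTDAP (adjusted p = 0.000895) and 1.61 ± 0.14 for RPTN (adjusted p = 0.000121). DMKN differed by 1.21 ± 0.10, TGM1 by 1.20 ± 0.13, SPRR2A2 by 1.12 ± 0.08 and SBSN by 1.00 ± 0.08, all with adjusted p under 0.05. SPRR2J-PS (0.82 ± 0.21), LCE6A (0.78 ± 0.23) and TGM5 (0.39 ± 0.10) were also called, although in each of them only 1 of the 2 experiments, or neither, had passed alone. IVL (0.44 ± 0.22), SPRR1A (0.23 ± 0.20), CRNN (0.22 ± 0.21) and the remaining 5 genes were not called.

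The AP-1 match stood in 12 of the 17 tested genes with a promoter entry and in 5 of the 29 below the filter. LCE genes, with the match in 0 of 20, are 20 of the 31 members that passed in neither table. The counts therefore also differ by family, and no link of the motif to level is drawn from them. Among the 9 genes higher with DZNep the match stood in 6 (DMKN, KRTDAP, RPTN, SBSN, SPRR2D and SPRR2H), and LCE6A, SPRR2A2 and TGM1 had none in the window. The other 6 genes with it were not higher, CRNN and LOR being lower with DZNep and IVL, SPRR1A, SPRR1B and SPRR2B not called.

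Related lists, chosen with earlier results of these data known, placed these genes among other parts of squamous differentiation. Suprabasal and stress keratins, the filament partners of the envelope, were higher with DZNep in 10 of 12 tested genes and lower in 0 (median 0.91, against 0.01 over all genes). Over all genes tested with DZNep, 16.6% were higher and 11.1% lower. The largest were KRT10 at 40.4 ± 4.66 RPKM with DZNep and 12.7 ± 1.28 with DMSO, KRT13 at 175 ± 9.92 and 60.9 ± 3.17, and KRT1 at 8.48 ± 1.38 and 2.55 ± 0.05. KRT1 and KRT10 pair in the spinous layer of skin, and KRT13 pairs with KRT4 in internal squamous epithelia. With Tamoxifen the same list was lower in 5 of 12 and higher in 0 (median -0.52), against 1.38% and 0.692% of all genes tested. The lower keratins were led by KRT13 at 20.2 ± 2.48 RPKM against 60.4 ± 1.33 with EtOH, KRT16 at 25.2 ± 2.54 against 50.7 ± 0.69, and KRT4 at 639 ± 40.9 against 1040.2 ± 32.7. KRT10 and KRT1 did not pass there (-0.61 and -0.51, limma adjusted p = 0.118 and 0.107).

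Counts of the lists below are read against the 16.6% higher and 11.1% lower with DZNep, and the 0.692% higher and 1.38% lower with Tamoxifen, over all genes tested. Of 14 junction genes 3 were higher and 6 lower with DZNep, with the desmosomal cadherin DSC3 at 0.44 and the claudin CLDN7 at -0.40. With Tamoxifen 1 of 14 was lower, DSG3, the pemphigus vulgaris antigen in humans, at 12.3 ± 0.85 RPKM against 27.1 ± 0.64 with EtOH (-1.08). Among proteases and their inhibitors 4 of 12 were higher with DZNep and 0 lower, led by SERPINB2 (0.82), SPINK5 (0.65), the inhibitor of skin kallikreins, and CTSD (0.38), and 0 of 11 were called with Tamoxifen, where 2 were above 0 and 3 below at an unadjusted limma p under 0.05. SERPINB2, at 1.75 ± 0.19 RPKM with DZNep and 0.557 ± 0.084 with DMSO, passed the filter only through DZNep, so its difference follows in part from the filter. Of 13 barrier lipid genes 3 were higher and 1 lower with DZNep, with FA2H at -0.43 and ABHD5 at 0.19, and 1 was lower with Tamoxifen, the acylceramide enzyme CYP4F39 at 1.08 ± 0.22 RPKM against 2.96 ± 0.43 with EtOH (-0.93). The single junction and lipid genes called with Tamoxifen are too few to be a result about these lists. With DZNep the lipid counts and the higher junction count are too near the shares over all genes to be one.

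Differentiation regulators were called higher in 7 and lower in 9 of 39 with DZNep, where the all-gene shares are 16.6% and 11.1%, so the higher count is no result about the list. The largest were the corepressor HR at -1.62 (12.7 ± 0.99 RPKM with DZNep and 41.4 ± 5.22 with DMSO), FOSB at -1.26 and FOS at -0.58, FOSB and FOS being AP-1 subunits. With Tamoxifen 2 of 39 were higher, FOSB at 1.33 and the AP-1 subunit JUN at 0.49, and 1 was lower, KLF4, a barrier transcription factor, at 48.1 ± 0.95 RPKM against 71.7 ± 0.05 with EtOH (-0.57). Other genes of the epidermal differentiation complex and calcium-binding genes were higher in 4 and lower in 3 of 16 with DZNep, led by PRR9 (1.49), S100A8 (1.07) and TGM2 (1.06). They were lower in 3 of 15 with Tamoxifen, with S100A9 at -1.51, S100A7A at -0.95 and S100A3 at -0.72. S100A7A, at 0.599 ± 0.021 RPKM with Tamoxifen and 2.09 ± 0.23 with EtOH, passed only through EtOH, so its difference follows in part from the filter. Squamous surface and secreted genes were higher in 6 and lower in 0 of 18 with DZNep, led by CLCA2 (0.57), IL1A (0.47) and SCEL (0.46), the last encoding the envelope-associated sciellin. SCEL, at 1.48 ± 0.086 RPKM with DZNep and 0.802 ± 0.13 with DMSO, passed only through DZNep, with the same limit. With Tamoxifen 3 of 17 were lower, SLURP1 at 218 ± 25.3 RPKM against 543 ± 13.9 with EtOH (-1.32), LY6G6C (-1.21) and the glycerol channel AQP3 (-0.95). With DZNep and with Tamoxifen the list medians were -0.02 and -0.13 for junctions, 0.13 and 0.06 for proteases, 0.10 and -0.01 for lipids, -0.04 and -0.05 for regulators, -0.0056 and -0.15 for the complex and calcium-binding genes, and 0.07 and -0.14 for surface genes, against 0.01 and 0.04 over all genes. Over all 7 lists 37 of 124 genes were higher and 19 lower with DZNep, and 2 of 121 were higher and 14 lower with Tamoxifen. Over all genes tested the shares were 16.6% higher and 11.1% lower with DZNep, and 0.692% and 1.38% with Tamoxifen, and 10 of the 37 higher genes with DZNep and 5 of the 14 lower with Tamoxifen were keratins. The lower count with DZNep was 11 without DZNep 2 and 10 without DMSO 2, where 701 and 541 of all genes were lower, against 1238 with all libraries. Without Tamoxifen 1 or Tamoxifen 2 fewer list genes and fewer of all genes were called in each direction, and without EtOH 2 more of both. Each of these Tamoxifen fits leaves a lone library in a group. These changes are not a result about the lists.

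**Figure D5:**
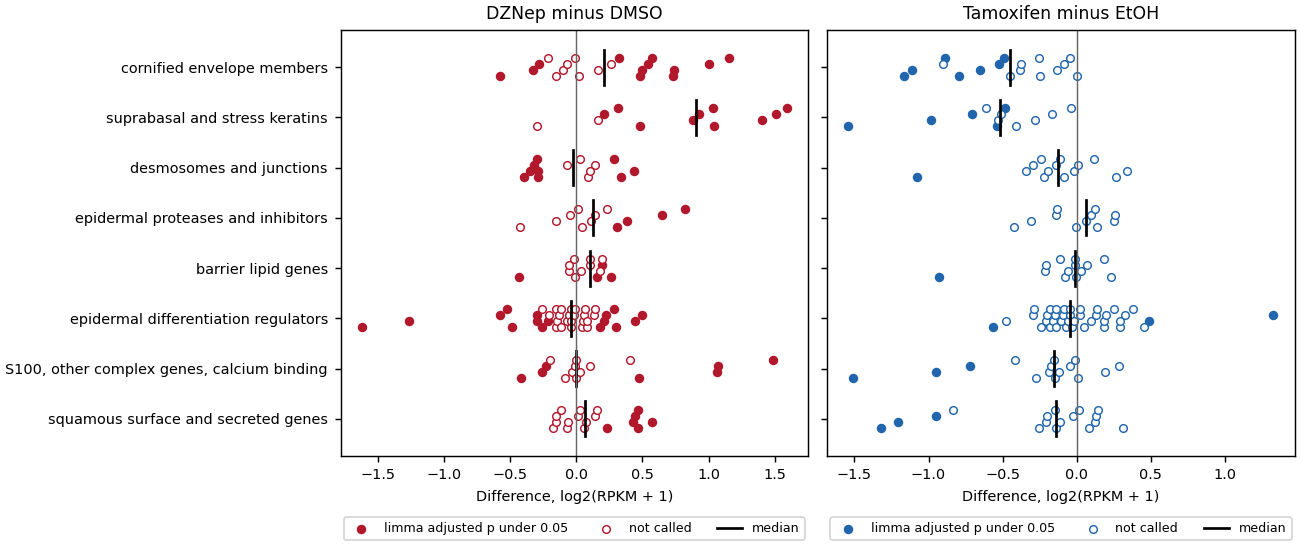
Difference of groups in log2(RPKM + 1) for the genes of the cornified envelope and of 7 related lists, DZNep minus DMSO on the left and Tamoxifen minus EtOH on the right. Filled points passed a limma adjusted p of 0.05, open points did not, and the bar is the median of each list. The keratin medians are 0.91 with DZNep and -0.52 with Tamoxifen.

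Markers of other cell types were read beside these values. The summed level of 9 basal prostate markers was 7006 to 7246 RPKM with DZNep against 5254 to 5506 with DMSO, and 4361 to 4468 with Tamoxifen against 5427 to 5814 with EtOH, with 0 of 9 under 1 RPKM everywhere. Most of this sum was KRT5, KRT14 and KRT15, and the other markers did not all follow it. With DZNep 5 of 9 were called higher and 2 lower, against 16.6% and 11.1% of all genes tested. The lower ones were ITGA6, at 39.2 RPKM against 48.1 with DMSO, and ITGB4, at 79.3 against 101.7. With Tamoxifen 1 of 9 was called higher and 1 lower, against 0.692% and 1.38% of all genes tested. A single gene each way is too few to be a result about these markers. NGFR was higher, at 11.4 RPKM against 7.41 with EtOH, and KRT14 was lower, at 600.6 against 842. The median change of the 9 was -0.02. For the 12 luminal markers in the tables the sums were 5322 to 5543 with DZNep against 5021 to 5185 with DMSO, and 4281 to 4556 with Tamoxifen against 4973 to 5359 with EtOH. Urothelial markers summed to 102 to 107 with DZNep against 75.6 to 78.5 with DMSO, and 69.0 to 71.5 with Tamoxifen against 79.1 to 84.7 with EtOH. All of these sums were above every DMSO library with DZNep and below every EtOH library with Tamoxifen, as were KRTDAP, SBSN, DMKN, TGM1 and RPTN, and their part in the result was not tested. Fibroblast and smooth muscle markers summed to 8.90 to 9.94 with DZNep against 3.61 to 4.75 with DMSO, and to 3.04 to 4.63 with Tamoxifen against 3.84 to 4.33 with EtOH, with COL3A1 and DES listed at 0 throughout and 10 of 12 under 1 RPKM everywhere. The DZNep sum was carried by DCN, at 6.11 RPKM against 2.77 with DMSO, and by ACTA2, at 2.51 to 2.83 against 0.404 to 0.881, while VIM (0.121 to 0.373 against 0.348 to 0.430) and COL1A1 (0.0064 to 0.055 against 0.054 to 0.130) were not higher. Immune markers summed to 17.5 to 19.1 with DZNep against 14.5 to 18.6 with DMSO, and to 13.9 to 16.1 with Tamoxifen against 12.4 to 15.6 with EtOH, most of it CD68. Endothelial markers stayed under 0.487 RPKM in sum, with CDH5, CLDN5 and EMCN at 0 in all libraries.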

How the data were processed

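RNA-seq of 10 organoid libraries was used, 3 DZNep, 3 DMSO, 2 Tamoxifen and 2 EtOH, grouped by the sample titles. Per the labels' protocols, total RNA was taken with TRIzol and libraries were made with a stranded Illumina TruSeq mRNA kit. The submitters' processing notes name build mm9, bcl2fastq 2.18, STAR and Cufflinks, the last 2 without a version. For each experiment the authors deposited a table of log2 RPKM, whose floor of 0 fits log2(RPKM + 1). Values were turned back into RPKM by undoing the logarithm and taking off the added 1, so a filter or a sum is on RPKM and a fold is on the log2(RPKM + 1) scale, which understates changes of low genes. The genetic table held 2 rows without values and 27 with symbols turned into dates, which were left out. Counts could not be recovered, so no count model was used and read depth is unknown.

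Where a gene's mean level in a table reached 1 RPKM it was tested with limma 3.58.1 in R 4.3.3 (moderated two-sided test with a mean trend, Benjamini-Hochberg adjustment over all genes tested, threshold 0.05). Each experiment was fitted alone, with 4 and 2 residual degrees of freedom. The difference of effects was fitted over all 10 libraries as 4 group means, with 6. Levels were not compared across the tables. Sums were compared by exact permutation over libraries. The members, the 7 related lists, the markers, the tests and the motifs were chosen with earlier results of these data known. Members with a mean of at least 1 RPKM in either table are named with all values, the others by range, and up to 3 called genes of largest change are named per list, 2 of which are not reported here. Other genes were named after their values were seen. The fits were tested on simulated data.

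Promoters come from RefSeq (GRCm38.p6), and gene order and shared 50-base stretches from reference transcripts of that assembly, another build than mm9. The alternatives tried were quantile normalization and trimmed mean scaling, a pseudocount of 0.1, a filter of 5 RPKM or none, limma with no mean trend, a joint fit, a replicate block, and the loss of each library in turn. Python 3.11.15 with matplotlib 3.10.9 drew the figures.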

Additional observations from a re-analysis of the deposited data

Results flagged for a closer look

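The effects of DZNep and of Tamoxifen differed for 9 of the 17 cornified envelope genes tested in both experiments (limma, 1 fit of all 10 libraries, adjusted p under 0.05 over 10994 genes, of which 19.9% were called). On the log2(RPKM + 1) scale the DZNep effect minus the Tamoxifen effect was 2.32 for KRTDAP, 1.61 for RPTN, 1.21 for DMKN, 1.20 for TGM1, 1.12 for SPRR2A2, 1.00 for SBSN, 0.82 for SPRR2J-PS, 0.78 for LCE6A and 0.39 for TGM5. KRTDAP, RPTN, DMKN, TGM1 and SBSN were higher with DZNep in 3 of 3 libraries and lower with Tamoxifen in 2 of 2, relative to every control library of their own experiment. RPTN passed in the genetic table only through EtOH, so its difference follows in part from the filter. The SPRR2A2 value may belong to its near-identical copies SPRR2A1 and SPRR2A3. The calls of 3 of these genes each depended on single libraries. LCE6A was lost without DZNep 1 (0.79), DZNep 2 (0.71), DMSO 2 (0.81), Tamoxifen 2 (0.65) or EtOH 1 (0.55). SPRR2J-PS was lost without DZNep 2 (0.78), Tamoxifen 1 (0.87), Tamoxifen 2 (0.78) or EtOH 1 (0.53). TGM5 was lost without Tamoxifen 1 (0.43), Tamoxifen 2 (0.35) or EtOH 2 (0.32). No group held enough libraries to ask whether a library stood apart within it.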

How the results depend on the processing

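With DZNep, 9 members were higher and 3 lower, and these counts moved by no more than 1.5 times under every alternative other than the replicate block and the loss of single libraries. Leaving out single libraries gave 7 to 10 higher and 1 to 4 lower, while 981 to 2092 of all genes were higher and 541 to 1267 lower. The calls of PPL and SPRR2H were lost with no filter. For TCHH, not called, quantile normalization gave -0.030. With Tamoxifen, 7 members lower became 0 with no filter, where 1 of 16382 genes was called. Without single libraries the lower calls fell or rose with those over all genes, and the member median spanned -0.58 to -0.45. CRNN and TGM5 were lost with no mean trend. For the difference, 7 to 9 members were called above 0 and 0 to 1 below without single DZNep or DMSO libraries. Over all genes 791 to 1278 were then called above 0 and 602 to 1048 below. LCE6A and SPRR2J-PS were lost with no filter. The cause was not tested. Estimates of genes that were not called changed sign without single libraries for 9 values. These spanned -0.12 to 0.068 for IVL, -0.13 to 0.023 for SPRR2J-PS and -0.031 to 0.057 for TCHH with DZNep, -0.29 to 0.19 for LCE6A, -0.042 to 0.042 for PPL and -0.49 to 0.31 for SPRR2B with Tamoxifen, and -0.033 to 0.15 for EVPL, -0.039 to 0.49 for SPRR1A and -0.15 to 0.65 for SPRR2B in the difference. Without single libraries the log2 ratios of sums were -0.043 to 0.045 with DZNep and -0.62 to -0.21 with Tamoxifen for all members, and 0.30 to 0.38 and -0.56 to -0.43 without SPRR1A. Whether replicate numbers pair the libraries was not settled, and the main fits did not use them. Deviations of same-numbered libraries correlated at 0.06, 0.06 and -0.07 (DZNep and DMSO) and 0.04 (Tamoxifen and EtOH). DZNep 2 and DZNep 3 did not correlate best with their own number. Weak correlations over all genes cannot exclude pairing. With 2 libraries per group the same-numbered and crossed values, 0.04 and -0.04, are 1 number with opposite signs. A replicate block called 8 members higher and 0 lower with DZNep, 11 lower with Tamoxifen and 8 above 0 for the difference. In the difference TGM5 was lost (limma adjusted p = 0.0502). Over all genes the block called 1016 higher and 594 lower of 11143 with DZNep, against 1850 and 1238 without it. With Tamoxifen it called 429 higher and 449 lower of 11123, against 77 and 153. For the difference it called 684 above 0 and 542 below of 10994, against 1179 and 1011. The changed member counts are therefore not read as a result about the members. In the related lists, the block gave 11 genes lower with DZNep and 8 higher and 22 lower with Tamoxifen. Over all genes with Tamoxifen, no filter gave 1 higher and 0 lower, and quantile normalization 87 higher of 11123. The joint fit gave 479 higher and 574 lower of 10994 genes, against 77 and 153 of 11123 in the main fit. Changed list counts in these fits are therefore not read as a result about the lists. The Tamoxifen counts of those lists were 0 higher and 0 lower with no filter, 4 higher with quantile normalization, and 9 higher and 23 lower in the joint fit. Without single libraries they were 0 to 9 higher and 5 to 22 lower, against 25 to 32 higher and 10 to 22 lower with DZNep, and 28 to 42 above 0 and 8 to 12 below for the difference (43 and 10 with all libraries). Trimmed mean scaling was computed directly on RPKM. With 2 libraries per group, leaving 1 out leaves a lone library, assumed to vary like the others. Read depth is not given, so low values carry no counting interval.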
